A study of Mus musculus with 27 samples.

Results

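The plasminogen activators and the serpins that restrain them were followed through TGF-β treatment of NMuMG cells and through lamin B1 knockdown (KD). The 5 genes were taken by name from the deposited expression tables: Plau, Plat, Plaur, Serpine2 and Serpinb2. All 5 had a row among the 23295 genes of the table of parental cells and among the 24247 genes of the table of shRNA cells, and all 5 were placed on the mouse genome build mm9.

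NMuMG cells are an established epithelial line from normal mammary gland of the mouse, and TGF-β takes them through an epithelial-to-mesenchymal transition (EMT). RNA-seq covered 9 groups with 2 biological replicates each. Parental cells (no shRNA), control cells (an irrelevant shRNA, labelled shCT) and lamin B1 KD cells (shRNA against lamin B1, labelled shLB) were each left untreated or exposed to TGF-β over 8 or 24 h, and the labels give the dose as 1 to 5 ng/ml. Methods of other assays on the shRNA cells describe infected cells under puromycin selection, and the sources used here do not say that KD cells were 1 clone. Lamin B1 ChIP-seq and ATAC-seq, an assay of open chromatin, were made in parental cells with 1 library per time point, and for lamin B1 each library was mixed from 2 parallel ChIPs. Peak values therefore have no error between replicates.

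Plasminogen is an inactive protease that liver releases into blood and that cells bind at their surface. Urokinase (uPA, the product of Plau) and tissue-type activator (tPA, the product of Plat) cleave it to plasmin, which digests fibrin, loosens extracellular matrix and activates other proteases. The receptor uPAR, encoded by Plaur, is anchored to the outer membrane by a lipid and holds urokinase at the cell surface. Serpins trap these proteases by a suicide mechanism. Protease nexin-1, the product of Serpine2, acts on thrombin, urokinase and plasmin, and Serpinb2 encodes plasminogen activator inhibitor type 2, much of which stays inside the cell. Pericellular plasmin formation is known for its part in migration and invasion of epithelial and tumour cells.

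Values were FPKM (fragments mapped to a transcript, divided by its length and by the size of the library), which the authors computed for each library. Replicates of a group correlated over all genes at r of 0.990 to 0.994 in the parental table and 0.983 to 0.993 in the shRNA table (log2 scale, across genes). The KD 24 h pair stood furthest apart, with a median absolute log2 difference between replicates of 0.116 against 0.0411 to 0.0979 in the other groups. Lmnb1 itself was lower in every KD library than in every control library of the same time point, with log2 differences of -1.73, -1.90 and -1.50 in the order of time. The summed FPKM of 6 epithelial markers was 3866 to 4746 in parental libraries and 4855 to 7013 in shRNA libraries, while 5 leukocyte, 4 endothelial, 4 fibroblast and 3 platelet markers summed to at most 2.15 FPKM per list in any library. Epcam, a defining epithelial marker, stayed at 0.171 to 3.15 FPKM over all libraries although Krt8, Krt18 and Cdh1 were abundant. RNA of a whole culture cannot tell fewer expressing cells from less RNA per cell. A difference between groups was called at an adjusted p under 0.05 in limma on log2(FPKM + 1), with the Benjamini-Hochberg adjustment over all genes that reached 1 FPKM in at least 2 libraries of a table (11309 parental and 11450 shRNA genes). Log2 differences below are on that scale, and folds are ratios of mean FPKM.

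The receptor gene was the most abundant of the 5 in every library. Mean FPKM over the parental libraries was 86.8 for Plaur, 30.1 for Plat, 9.40 for Plau, 5.16 for Serpine2 and 0.0943 for Serpinb2. These means stood above those of 95.8%, 87.6%, 71.1%, 63.5% and 41.5% of the genes in the table, in the same order. In the shRNA table, which was normalized apart, the means kept this order at 143.4, 26.1, 14.7, 3.41 and 0.135 FPKM. The ranges of Plaur, at 79.2 to 92.97 and 126.6 to 165.2 FPKM, lay above those of every other member in both tables. Serpinb2 never exceeded 0.184 FPKM in parental and 0.293 FPKM in shRNA libraries. In between, the order was not fixed: Plau lay below Serpine2 in both untreated parental libraries and above it in all others, and the ranges of Plau and Plat over all libraries overlapped in the shRNA table.

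**Figure D1:**
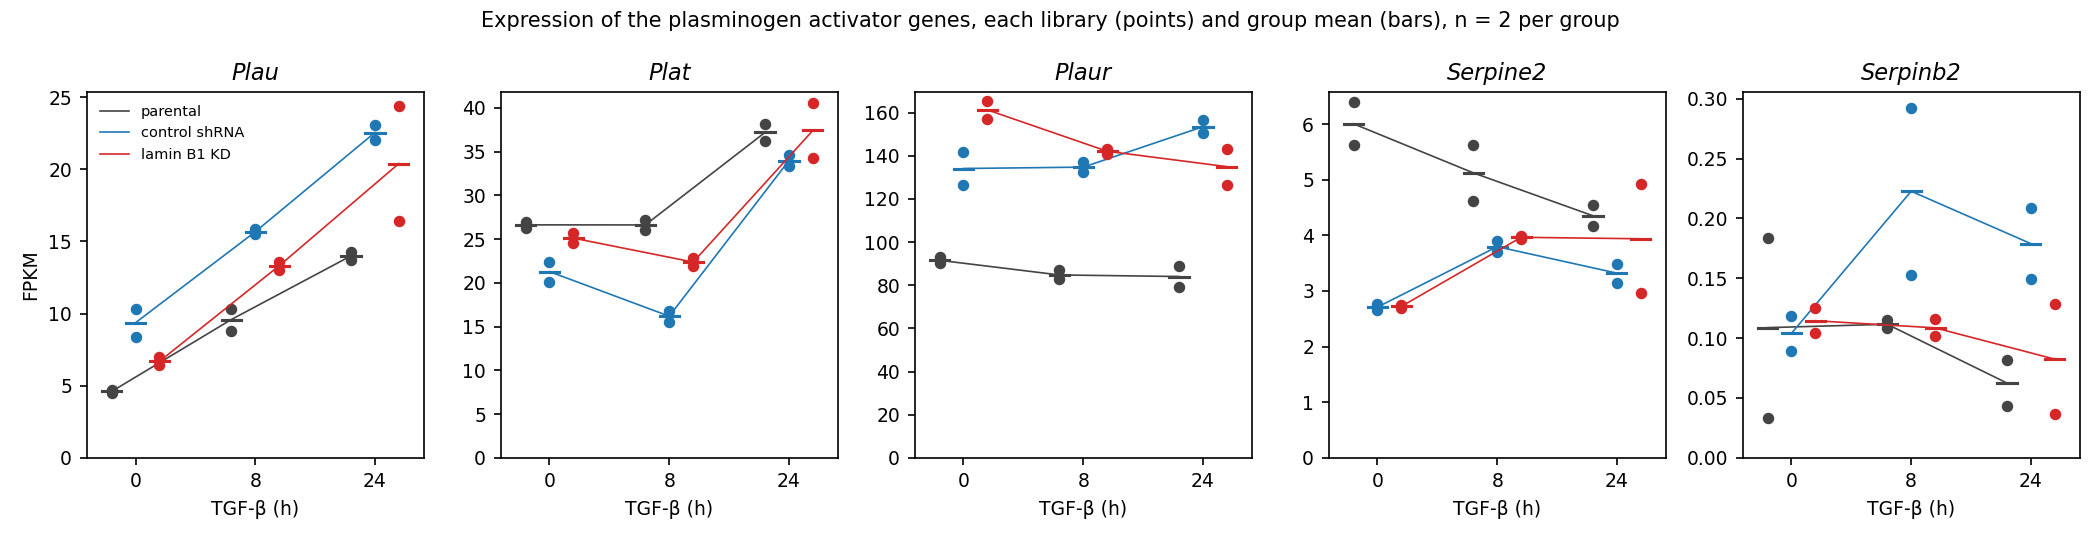
FPKM (y axis, linear, from 0, a scale of its own for each gene) of the 5 genes against hours of TGF-β (x axis) in parental (grey), control shRNA (blue) and lamin B1 KD cells (red), with a point per library and a bar at the mean of the 2 libraries of a group. Plau climbs at both times in all 3 kinds of cell, Plat is highest at 24 h, and the points of the KD 24 h pair lie apart for Plau, Plat, Serpine2 and Plaur.

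Counted over the members, TGF-β changed 1 of the 4 tested genes at 8 h in parental cells (Plau), where 54.5% of all tested genes were called, and 3 of 4 at 24 h (Plau and Plat higher, Serpine2 lower), where 70.5% were called. Between 8 and 24 h, 2 of 4 (Plau and Plat) were called against 51.8% of all genes. Control cells gave 2 of 4 at 8 h (64.3% of all genes) and 3 of 4 at 24 h (70.7%). KD cells gave 3 of 4 at 8 h (67.8%) and 4 of 4 at 24 h (71.9%). Serpinb2 did not reach 1 FPKM in any library and was not tested. With most genes of the tables called, these counts do not set the members apart, and the sizes and directions are described gene by gene. In the shRNA table the median of all tested genes itself fell, by 0.14 at 8 h and 0.13 at 24 h in control cells and by 0.13 and 0.10 in KD cells on the log2 scale. The share of calls that were higher was 30.2% and 36.1% in control and 33.9% and 39.8% in KD cells, and with quantile normalization it became 45.96% and 49.99%, and 45.96% and 50.1%.

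Short sequence motifs were searched on both strands of the 300 bases before the start site of each member and in 300-base windows at the centres of ATAC peaks. The letters for AP-1, the Fos and Jun dimer, were TGANTCA, and those for Smad proteins, the transducers of TGF-β, were CAGAC. The E-box of Snail and Zeb factors was searched as CAGGTG, and TEAD factors were represented by the letters GGAATG. For the TATA box of core promoters the letters were TATAAA, and for the GC box bound by Sp factors they were GGGCGG. Of 21762 promoters of this length, 7.12% held the AP-1 motif, 46.9% the Smad motif, 20.1% the E-box, 14% the TEAD motif, 14.1% the TATA box and 42.1% the GC box. Of the 33811 centres of 24 h ATAC peaks the shares were 41.2%, 56.2%, 16.5%, 19%, 12% and 24.6%. No window of a member held the E-box or the TEAD letters. A match is a description of letters and not evidence of binding, and these windows come from the reference genome (NCBIM37, the mm9 assembly).

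Plau, which encodes urokinase, showed the largest response. The gene lies at chr14:21655884-21662610 on the plus strand. No lamin B1 or ATAC peak covered its start site at any time point, and the nearest ATAC peak of the 24 h list was centred 5.3 kb upstream (MACS score 85.7), outside any annotated exon. The promoter (chr14:21655584-21655883, plus strand) and the central 300 bases of that upstream peak (chr14:21650432-21650731, plus strand) are shown because they are the candidate regulatory stretches nearest to the gene that rose most, with motif matches in capitals.
Plau promoter: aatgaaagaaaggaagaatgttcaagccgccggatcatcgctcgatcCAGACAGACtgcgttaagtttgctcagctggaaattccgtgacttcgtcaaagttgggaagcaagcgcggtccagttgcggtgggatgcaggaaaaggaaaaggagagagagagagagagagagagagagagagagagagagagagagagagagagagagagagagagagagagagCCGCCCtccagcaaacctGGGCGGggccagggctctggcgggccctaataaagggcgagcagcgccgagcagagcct
Plau upstream ATAC peak: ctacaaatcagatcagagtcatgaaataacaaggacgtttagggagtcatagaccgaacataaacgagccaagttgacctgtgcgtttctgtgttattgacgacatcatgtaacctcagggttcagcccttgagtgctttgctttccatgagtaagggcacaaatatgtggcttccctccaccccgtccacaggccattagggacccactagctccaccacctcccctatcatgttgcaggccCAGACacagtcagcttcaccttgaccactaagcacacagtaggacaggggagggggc
The promoter held overlapping copies of CAGAC starting 253 and 249 bases before the start site and GC boxes starting 77 and 59 bases before it. The upstream window held CAGAC at base 244 and no AP-1 motif.

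Untreated parental cells held 4.68 and 4.52 FPKM of Plau. At 8 h the libraries read 10.4 and 8.82 FPKM, and at 24 h 14.3 and 13.7 FPKM. The 3 groups did not overlap, and each later time stood above the one before. Plau rose 2.08-fold at 8 h (log2 difference 0.92, SE 0.075, adjusted p = 0.00012) and 3.04-fold at 24 h (1.42, SE 0.075, adjusted p = 5.03e-06), and the step from 8 to 24 h was 1.46-fold (0.51, adjusted p = 0.0014).

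Plau started higher in control shRNA cells, at 8.39 and 10.3 FPKM, than in untreated KD cells, at 6.40 and 6.97 FPKM. Control cells reached 15.9 and 15.5 FPKM at 8 h, then 22.1 and 23.1 FPKM at 24 h. KD cells reached 13.1 and 13.6 FPKM at 8 h, then 16.4 and 24.4 FPKM at 24 h, so that the last pair spanned the control values. Within each kind of cell the time points did not overlap. The rise was 1.67-fold at 8 h (log2 difference 0.69, adjusted p = 0.0037) and 2.41-fold at 24 h (1.19, adjusted p = 0.00011) in control cells, and 1.99-fold (0.90, adjusted p = 0.00075) and 3.05-fold (1.45, adjusted p = 2.92e-05) in KD cells. The calls of Plau over time in all 3 kinds of cell held under every refit with another pseudocount, filter, scaling or set of libraries. With a 2-fold minimum on the log2(FPKM + 1) scale they were left at 24 h against untreated cells.

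Plat, which encodes tPA, rose later. It lies at chr8:23868216-23893319 on the plus strand, and its start site lay under an ATAC peak at 8 h (score 76.1) and at 24 h (score 307.4) but under none in untreated cells. The promoter window, chr8:23867916-23868215 on the plus strand, is shown since it lies under both of those peaks, with its motif match in capitals.
Plat promoter: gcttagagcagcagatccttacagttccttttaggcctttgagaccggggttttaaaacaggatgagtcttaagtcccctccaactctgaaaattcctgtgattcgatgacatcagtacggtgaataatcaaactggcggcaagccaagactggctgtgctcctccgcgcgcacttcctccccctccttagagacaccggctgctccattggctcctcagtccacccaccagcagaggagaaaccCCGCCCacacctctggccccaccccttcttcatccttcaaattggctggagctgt
The only match was a GC box on the minus strand starting 55 bases before the start site. With 54.0% G and C bases, the window was richer in them than 50.2% of promoters.

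In parental cells Plat read 26.3 and 27.0 FPKM untreated, 26.03 and 27.2 FPKM at 8 h, then 38.1 and 36.2 FPKM at 24 h. The untreated and 8 h values overlapped (log2 difference -0.00074, 95% interval -0.11 to 0.11), and both 24 h libraries lay above all others. The rise at 24 h was 1.40-fold (0.47, SE 0.046, adjusted p = 9.11e-05), and that from 8 to 24 h was also 1.40-fold (0.47, adjusted p = 0.00022).

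In control shRNA cells Plat dipped before it rose. The libraries read 22.4 and 20.1 FPKM untreated, 16.8 and 15.5 FPKM at 8 h, then 33.3 and 34.6 FPKM at 24 h, with no overlap between times. The change was 0.761-fold at 8 h (log2 difference -0.37, SE 0.082, adjusted p = 0.0036) and 1.60-fold at 24 h (0.65, adjusted p = 9.62e-05). The median of all tested genes was itself -0.143 at 8 h in control cells, and with quantile normalization, which sets it near 0, the fall of Plat was 0.26 on the log2 scale in size (adjusted p = 0.016).

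KD cells held 24.5 and 25.7 FPKM of Plat untreated, 22.8 and 21.9 FPKM at 8 h, then 34.3 and 40.6 FPKM at 24 h. Both 8 h libraries lay below the untreated ones, by a difference that did not pass the test (log2 difference -0.16, adjusted p = 0.12). At 24 h Plat rose 1.49-fold (0.55, adjusted p = 0.00027).

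The balance between the activator genes moved toward urokinase with TGF-β. Plau made up 15.1% and 14.3% of the sum of Plau and Plat FPKM in untreated parental cells, 28.5% and 24.5% at 8 h, and 27.2% and 27.5% at 24 h. In control cells the share was 27.2% and 33.9% untreated, 48.5% and 49.9% at 8 h and 39.8% and 39.96% at 24 h, and at 8 h both transcripts were almost equally abundant. KD cells held 20.7% and 21.4%, then 36.4% and 38.2%, then 32.4% and 37.5%, below the control libraries of the same time in every case. These shares were computed after the values of both genes were known and carry no test.

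Plaur, the receptor gene, is abundant and moved little. It lies at chr7:25247519-25260892 on the plus strand, and its start site lay under an ATAC peak at 24 h only (score 184.3, 2816 bp wide). The promoter window, chr7:25247219-25247518 on the plus strand, is shown because this peak covered it, again with motif matches in capitals.
Plaur promoter: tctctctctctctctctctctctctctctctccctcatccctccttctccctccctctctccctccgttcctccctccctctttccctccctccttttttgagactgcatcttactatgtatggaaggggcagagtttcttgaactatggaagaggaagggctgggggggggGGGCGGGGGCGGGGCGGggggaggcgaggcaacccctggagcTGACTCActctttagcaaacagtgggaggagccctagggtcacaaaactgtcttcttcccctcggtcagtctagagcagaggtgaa
It held the AP-1 letters TGACTCA starting 86 bases before the start site, which 7.12% of promoters share in some form, and GC boxes starting 128, 122 and 117 bases before it, of which the last 2 overlap by a base.

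Parental cells read 92.97 and 90.1 FPKM of Plaur untreated, 86.8 and 82.7 FPKM at 8 h, then 88.8 and 79.2 FPKM at 24 h. All treated libraries lay below the untreated ones, yet neither time passed the test (log2 difference -0.11, adjusted p = 0.16 at 8 h and -0.12, adjusted p = 0.099 at 24 h).

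Control shRNA cells held 126.6 and 141.6 FPKM untreated, 136.9 and 132.6 FPKM at 8 h, then 156.5 and 150.4 FPKM at 24 h. KD cells held 157.2 and 165.2 FPKM untreated, 140.9 and 143.2 FPKM at 8 h, then 143.3 and 126.6 FPKM at 24 h. The groups thus started in one order and ended in the opposite order. Over all tested genes the median log2 difference from untreated cells was -0.143 at 8 h and -0.134 at 24 h in control cells. In KD cells this median was -0.131 and -0.103. Plaur rose 1.14-fold at 24 h in control cells (log2 difference 0.20, adjusted p = 0.030), without a change at 8 h (0.0089, adjusted p = 0.92). In KD cells it was 0.881-fold at 8 h (-0.18, adjusted p = 0.042) and 0.837-fold at 24 h (-0.26, adjusted p = 0.0081). These calls are close to the threshold: the call in control cells was lost without untreated control replicate 1 (adjusted p = 0.19) or without either 24 h control library (0.14 and 0.058), the 8 h call in KD cells was lost without any 1 of its 4 libraries (0.067 to 0.19), and the 24 h call in KD cells without untreated KD replicate 2 (0.057).

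The inhibitor gene Serpine2 was lower after TGF-β in parental cells and higher in shRNA cells, in tables normalized apart. It lies at chr1:79790772-79855271 on the minus strand. No lamin B1 or ATAC peak lay in the gene, and its promoter window had 74.0% G and C bases, more than 95.4% of promoters, with GC boxes starting 130, 24, 19 and 7 bases before the start site and CAGAC on the minus strand starting 178 bases before it.

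Parental cells held 5.62 and 6.39 FPKM of Serpine2 untreated, 4.62 and 5.63 FPKM at 8 h, then 4.54 and 4.17 FPKM at 24 h. The untreated and 8 h libraries overlapped by a narrow margin, and both 24 h libraries lay below all others. At 24 h Serpine2 was 0.725-fold the untreated level (log2 difference -0.39, SE 0.096, adjusted p = 0.0091), while 8 h did not pass the test (-0.20, adjusted p = 0.13). The 24 h call was lost without the untreated library at 6.39 FPKM (adjusted p = 0.064) or without the 24 h library at 4.17 FPKM (0.055).

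Control shRNA cells read 2.76 and 2.66 FPKM untreated, 3.90 and 3.69 FPKM at 8 h, then 3.49 and 3.15 FPKM at 24 h. KD cells read 2.70 and 2.75 FPKM untreated, 3.94 and 3.996 FPKM at 8 h, then 2.96 and 4.92 FPKM at 24 h. In both, every treated library lay above the untreated ones. The call was made in KD cells (1.46-fold at 8 h, log2 difference 0.42, adjusted p = 0.035, and 1.45-fold at 24 h, 0.38, adjusted p = 0.047) and missed in control cells (1.40-fold at 8 h, 0.37, adjusted p = 0.056, and 1.23-fold at 24 h, 0.22, adjusted p = 0.22). The difference between these responses is 0.045 at 8 h (95% interval -0.44 to 0.53) and 0.16 at 24 h (-0.32 to 0.64), so that a call in KD cells alone shows no difference between them. At 24 h the KD value rests on replicate 2, and without it the log2 difference is 0.089 (adjusted p = 0.25). The 8 h call in KD cells was lost without any 1 of its 4 libraries (adjusted p from 0.098 to 0.11).

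Serpinb2 was close to silent. It lies at chr1:109408000-109432055 on the plus strand, inside the cluster of Serpinb genes. The parental libraries read 0.0335 and 0.184 FPKM untreated, 0.108 and 0.115 FPKM at 8 h, then 0.0433 and 0.0817 FPKM at 24 h, and these groups overlapped except that 24 h lay below 8 h. Control cells read 0.119 and 0.0892, then 0.293 and 0.153, then 0.150 and 0.208 FPKM, and KD cells 0.104 and 0.125, then 0.102 and 0.116, then 0.128 and 0.0365 FPKM. Without the filter on low values, no comparison of Serpinb2 reached an adjusted p under 0.05, the lowest being 0.084 for control cells at 8 h. At these levels neither a change nor its absence can be read from FPKM, since the read counts are unknown.

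A 24 h ATAC peak stood 5.3 kb upstream of Serpinb2 (score 292.7), with no peak there in the other lists. Its central 300 bases, chr1:109402511-109402810 on the plus strand, are shown because this was the only ATAC peak of the 3 lists within 25 kb of Serpinb2, with AP-1 letters in capitals.
Serpinb2 upstream ATAC peak: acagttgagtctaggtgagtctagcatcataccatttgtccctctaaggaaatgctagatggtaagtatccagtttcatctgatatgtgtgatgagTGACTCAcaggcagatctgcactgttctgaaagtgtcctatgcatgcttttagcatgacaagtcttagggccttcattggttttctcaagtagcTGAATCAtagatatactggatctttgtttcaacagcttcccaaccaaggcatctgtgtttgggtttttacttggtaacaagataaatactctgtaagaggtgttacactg
The AP-1 motif occurred at bases 97 (TGACTCA) and 191 (TGAATCA). At least 1 copy was present in 41.2% of the 24 h peak centres. The Serpinb2 promoter had 33.7% G and C bases, more than only 4.22% of promoters, with an AP-1 match (TGAATCA) starting 94 bases and a TATA box starting 29 bases before the start site, and it lay under no peak.

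**Figure D2:**
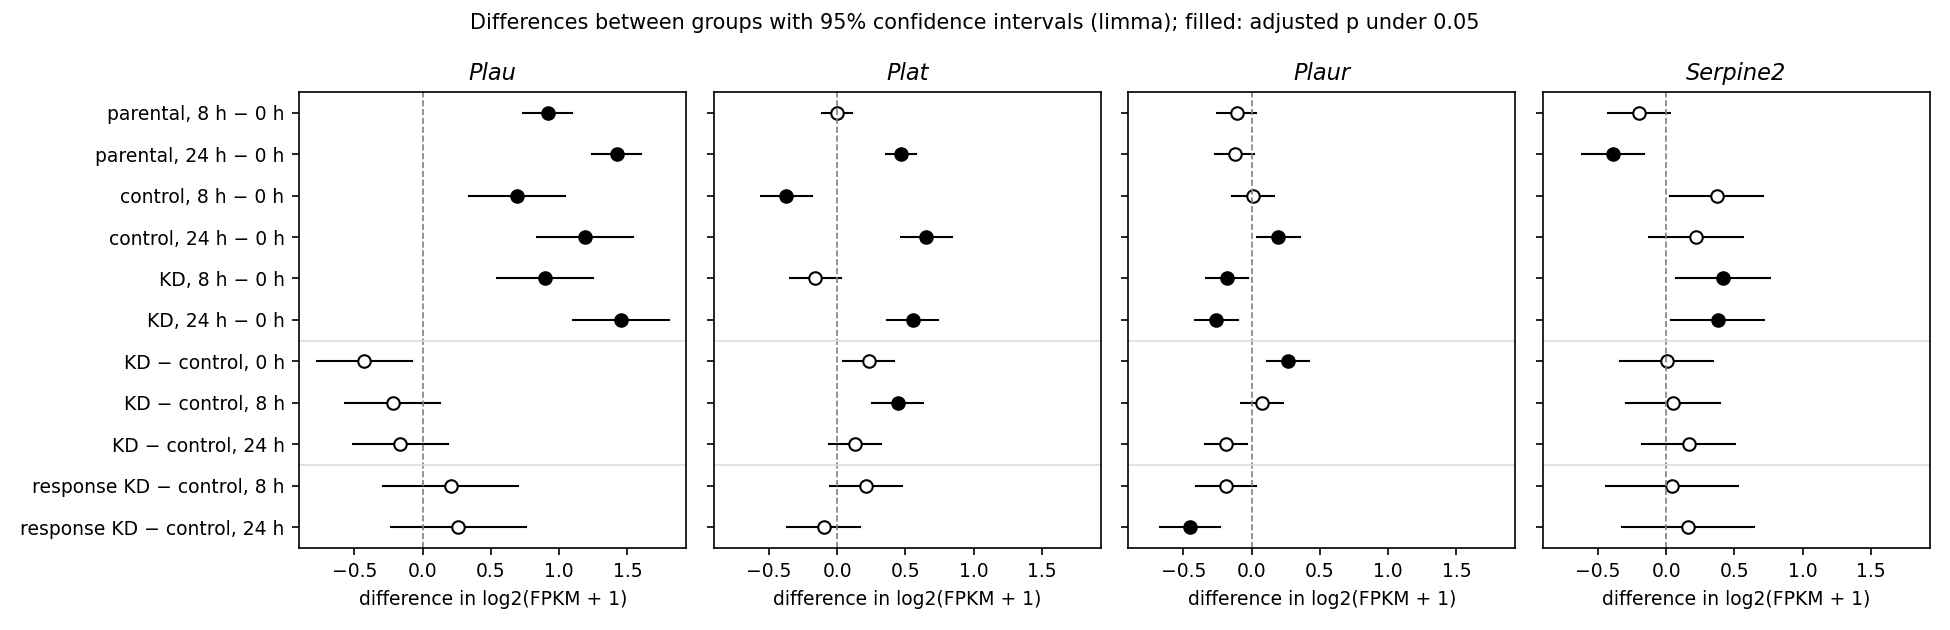
Differences in log2(FPKM + 1) (x axis) for the 4 tested genes, one panel each, with rows for TGF-β in parental, control and KD cells, for KD against control cells at each time, and for the difference between the KD and control responses. Points are limma estimates, bars their 95% confidence intervals, and filled points have an adjusted p under 0.05. Plau lies right of 0 in all 6 time comparisons, and for Plaur the last row, at -0.45, lies left of 0.

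Lamin B1 KD was set against the control shRNA at each time to ask which members differ with the knockdown. Lmnb1 itself fell with TGF-β at 24 h, to 0.552-fold in control cells (limma, adjusted p = 0.0032) and 0.650-fold in KD cells (0.017). The 24 h comparison therefore has controls with less Lmnb1 RNA than the untreated ones. Of the 4 tested members, 1 was called in untreated cells (Plaur, higher), where 19.7% of all tested genes were called. At 8 h 1 was called (Plat, higher) against 35.8% of all genes, and at 24 h none, against 28.3%. At an unadjusted p under 0.05 the members were Plau, Plaur and Plat in untreated cells, Plat at 8 h and Plaur at 24 h.

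Plat was 1.38-fold higher in KD than in control cells at 8 h (22.8 and 21.9 against 16.8 and 15.5 FPKM), a log2 difference of 0.44 (SE 0.082, adjusted p = 0.0039). The groups did not overlap, and the call held without any 1 library (adjusted p from 0.015 to 0.035). Both KD libraries were above both control libraries in untreated cells too (1.18-fold, log2 difference 0.23, adjusted p = 0.083). At 24 h, 1 KD library fell between the control values (0.13, 95% interval -0.056 to 0.32).

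Plaur was 1.20-fold higher in untreated KD than in control cells (157.2 and 165.2 against 126.6 and 141.6 FPKM, log2 difference 0.27, SE 0.069, adjusted p = 0.028). The call was lost without untreated control replicate 1 (adjusted p = 0.11) or either untreated KD library (0.092 and 0.16). At 8 h the difference was 0.076 (95% interval -0.080 to 0.23), and at 24 h it was -0.19 with both KD libraries below both control libraries (adjusted p = 0.073).

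Plau was lower in both KD libraries than in both control libraries at 0 and 8 h, by differences that did not pass the test (log2 difference -0.43, adjusted p = 0.086, and -0.22, adjusted p = 0.30). At 24 h the KD pair spanned the controls (-0.16, 95% interval -0.51 to 0.19). Serpine2 differed by 0.0052 in untreated cells (95% interval -0.34 to 0.35), by 0.050 at 8 h (-0.29 to 0.39) and by 0.17 at 24 h (-0.18 to 0.51). At 24 h the KD pair decides the picture: without KD replicate 1, 3 members were called (Serpine2 0.46, Plaur -0.27, Plat 0.25), and without KD replicate 2 only Plau was (-0.43). In these refits 39.2% and 26.4% of all tested genes were called.

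The test of whether TGF-β acted differently in KD cells called none of the 4 members at 8 h, where 4.06% of all tested genes were called, and Plaur at 24 h, where 4.72% were. No member had an unadjusted p under 0.05 at 8 h. For Plaur the 24 h response was lower in KD than in control cells by a log2 difference of -0.45 (SE 0.097, 95% interval -0.67 to -0.23, adjusted p = 0.039), as it rose in both control libraries and was lower in both KD libraries. The value stayed between -0.57 and -0.36 in all refits. The adjusted p ranged from 0.0048 to 0.16 over them. The refits that missed the threshold included those with no filter (0.057), with only the groups compared (0.13) and without untreated control replicate 1, either untreated KD library or either 24 h control library (0.076 to 0.16).

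No member overlapped a deposited lamin B1 peak, and signal below the score at which the lists were cut was not analysed here. The paper made this ChIP-seq on a fraction enriched in euchromatin, the accessible part of chromatin. Large fragments, which hold heterochromatin, were kept out of sequencing, and the paper detected lamin B1 at a lamina-associated region by ChIP-qPCR. A gene without a peak in these lists can therefore still be in contact with lamin B1. Counting any peak from 2500 bp upstream of the start site to the 3′ end, 0 of 5 genes had a peak in any of the 3 lists. Of all 21762 placed genes, 19.8% had one without TGF-β, 38.8% after 8 h and 29.4% after 24 h. Among the 11044 placed genes tested for expression the shares were 33.4%, 56.3% and 44.0%. Having no peak at any time was common, at 54.2% of placed and 34.0% of tested genes.

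The nearest lamin B1 peak to Plaur lay 5.4 kb past its 3′ end, over the start of the next gene Cadm4, in all 3 lists (scores 58.2, 74.6 and 119.6 in the order of time). Plat had its nearest peak 24.9 kb away at 0 and 8 h (scores 66.9 and 51.7), over the start of 1700041G16Rik, and 42.2 kb away at 24 h. For Plau the nearest peak was a different one in each list. It lay 232.5 kb away past the 3′ end at 0 h, and 171.9 kb and 99.4 kb away on the upstream side at 8 and 24 h. The lists themselves differ in length, with 4645, 10484 and 7083 peaks in the order of time. Serpine2 was 121.9 kb or more and Serpinb2 712.0 kb or more from any peak. The MACS score is a scaled logarithm of a peak's p-value in the original version of that program, and every list was cut at 50.

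ATAC peaks appeared at 2 of the 5 start sites. Within 500 bp of the start, 0 of 5 members had a peak in untreated cells (30.8% of placed genes), 1 at 8 h (Plat, 25.1%) and 2 at 24 h (Plat and Plaur, 47.3%). Among the 11044 placed genes tested for expression, which leave out Serpinb2, the shares were higher, at 56.4%, 46.1% and 84.1%. A peak at 24 h and none at 0 h was found at 16.8% of placed and 28.0% of expression-tested genes. The 24 h list was by far the longest, with 33811 peaks and a median score of 155.2 against 9782 and 10340 peaks with medians of 93.1 and 73.9. The part of list length in the peaks at 24 h was not tested. With lists cut to equal length, Plat kept its 24 h peak and Plaur did not.

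Plat had the densest set of peaks. An intronic peak about 8.3 kb into the gene at 8 h (score 53.3) was followed by a broad one at 24 h (3648 bp, score 316.3). A peak over the last exon was present in untreated cells and at 8 h (scores 122.9 and 111.7) and was not in the 24 h list, where a peak centred 26.7 kb from the start site, past the 3′ end, was found instead (150.4). Plaur had an upstream peak centred 2.7 kb from its start in untreated cells (69.3) and 2.8 kb at 24 h (212.9), another 13.1 kb upstream at 8 and 24 h (59.2 and 255.9), and an intronic one at 24 h (245.3).

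**Figure D3:**
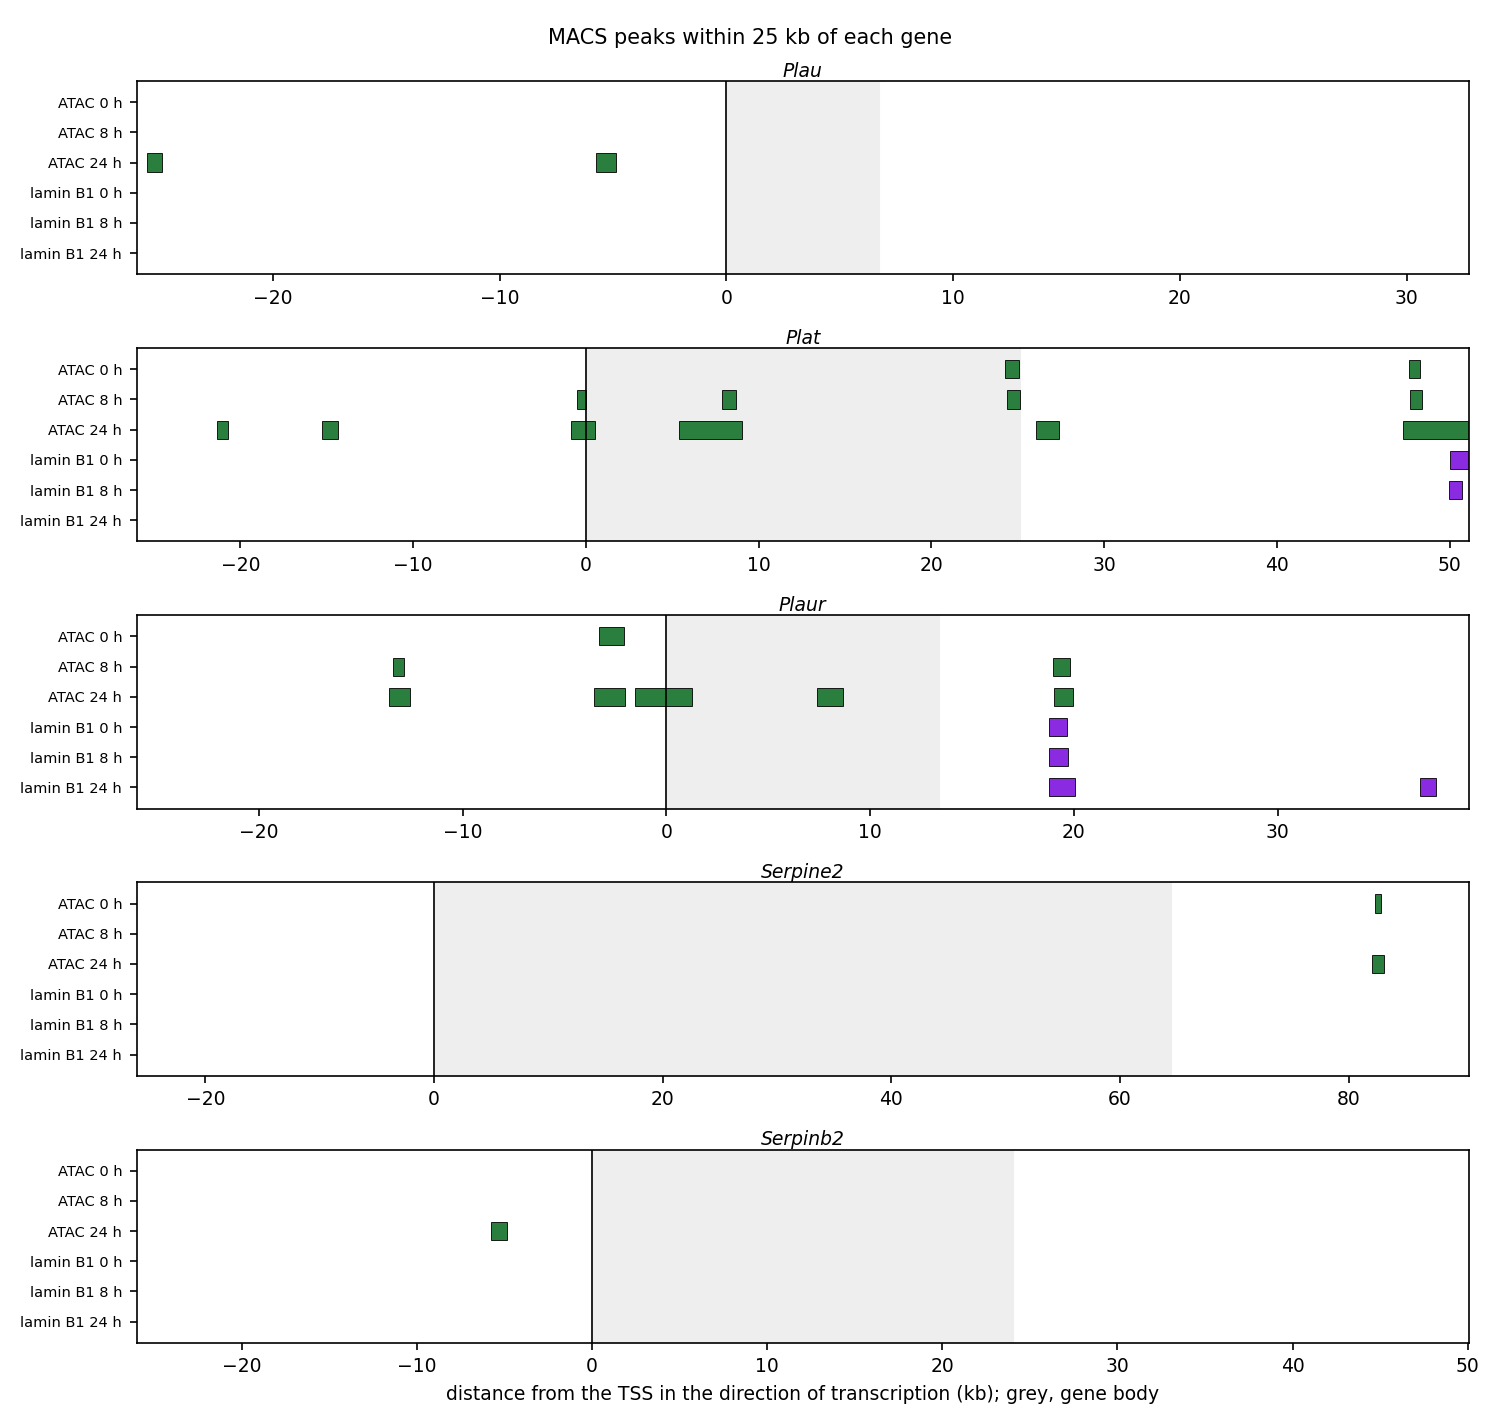
Deposited MACS peaks within 25 kb of each of the 5 genes, drawn to scale against distance from the start site in kb in the direction of transcription (x axis), with the gene body in grey, ATAC peaks in green and lamin B1 peaks in purple, and rows for the lists of 0, 8 and 24 h. No purple box touches a grey gene body, and green boxes lie over the start site (black line) in the Plat and Plaur panels.

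The other genes of the plasmin system were read as lists at 24 h in parental cells, where 33.4% of all tested genes were higher and 37.1% lower and the median log2 difference was -0.019. Of 9 tested genes for plasminogen, its surface receptors and clearance receptors, 2 were higher and 6 lower (median -0.56). The largest falls on the log2(FPKM + 1) scale were of Sorl1, a sorting receptor (0.560-fold), S100a10 (0.646-fold), which forms the plasminogen-binding pair with Anxa2, and Eno1 (0.660-fold), a glycolytic enzyme that also binds plasminogen. As a ratio of mean FPKM, the receptor gene Lrp8 came second, at 0.609-fold. Lrp1, which clears activator and inhibitor complexes, rose 1.43-fold and its chaperone Lrpap1 1.21-fold. Plg, the substrate itself, was listed at 0 in all 6 parental libraries and at no more than 0.0145 FPKM in any shRNA library.

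Of 4 tested other inhibitors, Serpini1, which encodes neuroserpin, an inhibitor of tPA, passed the filter on low values only through the 24 h libraries where it was high, so its call is not counted. Its libraries read 0.667 and 0.756 FPKM untreated, 0.707 and 0.752 FPKM at 8 h, then 4.22 and 4.30 FPKM at 24 h. In shRNA cells too it reached 1 FPKM only at 24 h, with 2.96 and 2.89 FPKM in control and 3.31 and 4.88 FPKM in KD libraries. Of the 3 inhibitors left, 1 was higher and 1 lower (median 0.028). Spint2, an inhibitor of hepatocyte growth factor activator and other surface serine proteases, fell to 0.303-fold. Serpinb8 rose 1.30-fold.

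Of 5 tested coagulation genes and protease-activated receptors, Tfpi, for the inhibitor of the tissue factor pathway, also passed the filter only through its 24 h libraries (1.08 and 1.26 FPKM, against 0.569 and 0.564 FPKM untreated) and is not counted. Of the 4 left, 2 were higher and 2 lower (median 0.27). The thrombin receptor gene F2r rose 3.57-fold and Procr, for the protein C receptor, 3.19-fold, while F2rl1, for the receptor PAR2, was 0.340-fold and F3, for tissue factor, 0.569-fold. Of 3 tested genes in the list of other activators and linked proteases, the membrane metalloproteinase gene Mmp14 rose 2.87-fold. Met (0.555-fold), which encodes the receptor of hepatocyte growth factor and not a protease, and Hgfac (0.705-fold) fell (median -0.45). Of 7 listed Serpinb genes near Serpinb2, which do not include its neighbour Serpinb8, only Serpinb5, which encodes maspin, was tested. It fell to 0.390-fold. A fall in one gene of a list and a rise in another stood side by side in each list with more than 1 tested gene.

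In KD against control cells at 8 h the median over all tested genes was 0.0079, and 19.3% of them were higher and 16.5% lower. Plasminogen receptors and clearance receptors gave 2 higher and 1 lower of 9 (median 0.047), with Sorl1 at 2.12-fold, Lrpap1 at 1.38-fold and Eno1 at 0.785-fold. Other inhibitors gave 2 higher of 4 (median 0.34), Serpinb8 at 1.60-fold and Spint2 at 1.48-fold. Coagulation genes gave 2 higher and 2 lower of 5 (median -0.11), with Procr at 1.98-fold, F3 at 1.82-fold, F2r at 0.714-fold and Thbd, for thrombomodulin, at 0.672-fold. Thbd lay at 0.404 to 0.446 FPKM in KD and 0.629 to 0.636 FPKM in control libraries at 8 h. It passed the filter on low values only through the control 24 h libraries (1.06 and 1.18 FPKM), which are not part of this comparison. Hgfac (1.33-fold) and Mmp14 (1.24-fold) were higher among the 3 tested genes of the list that also holds the receptor gene Met (median 0.30). Serpinb5 was not called. In the same comparison 2 of 6 epithelial markers were higher (Cdh1 and Epcam) and 2 lower (Krt18 and Cldn4), and their part in these differences was not tested.

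**Figure D4:**
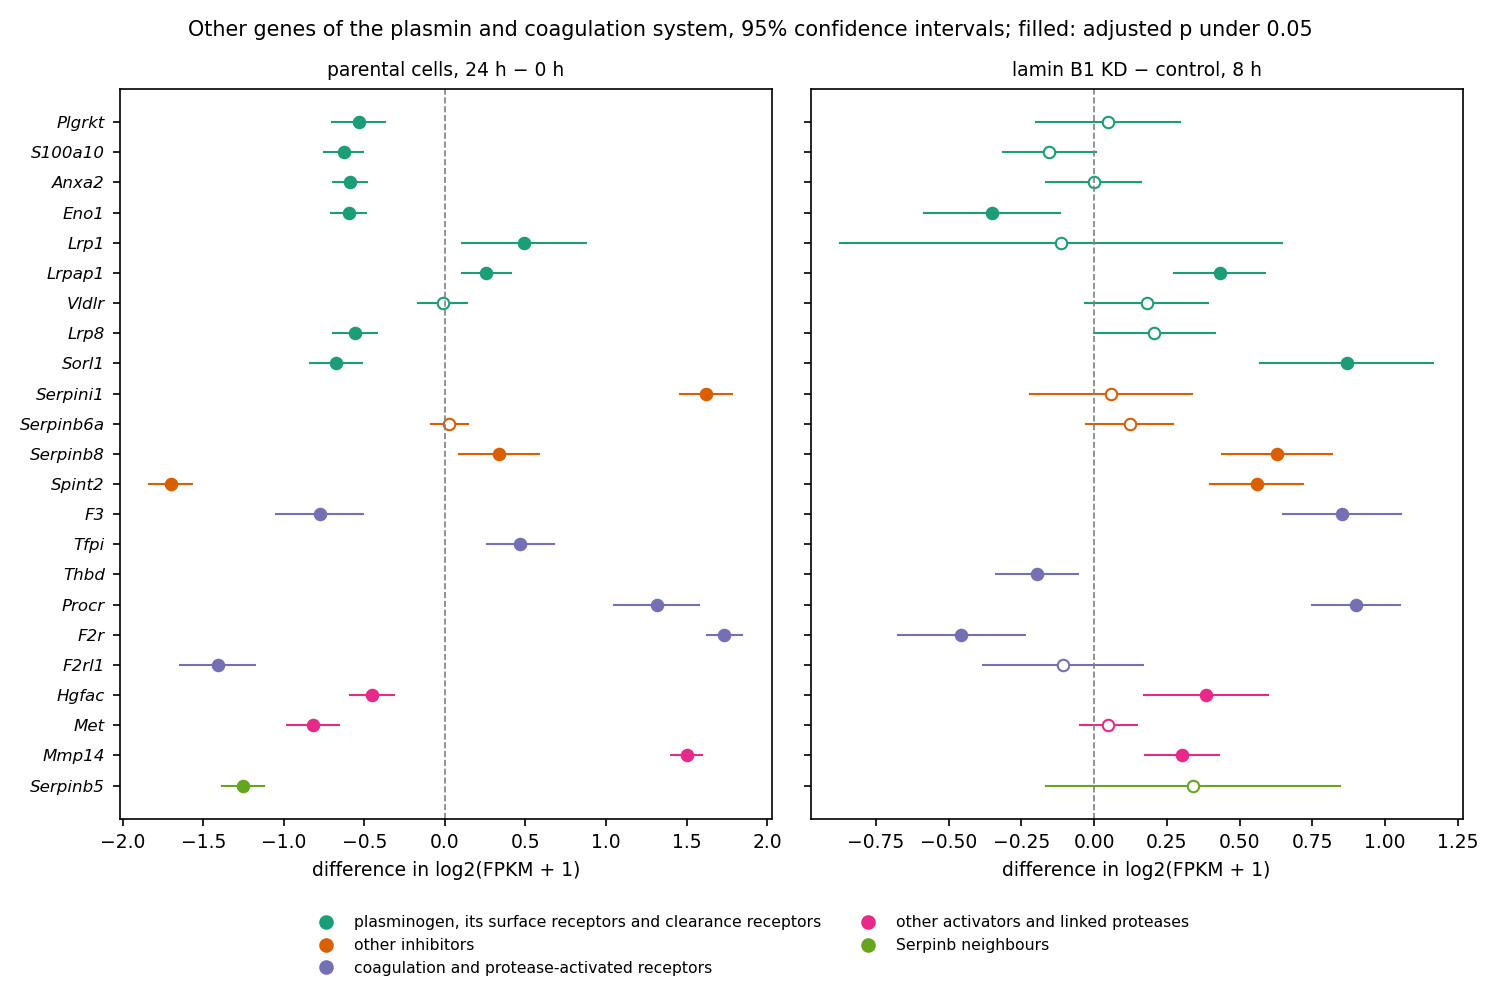
Differences in log2(FPKM + 1) (x axis) of the tested genes of the 5 lists, coloured by list, for parental cells at 24 h against untreated cells (left) and for lamin B1 KD against control cells at 8 h (right), as limma estimates with 95% confidence intervals and filled points at an adjusted p under 0.05. On the left, Serpini1, F2r, Mmp14 and Procr lie right of 1 and Spint2, F2rl1 and Serpinb5 left of -1, and on the right no gene passes 1 in either direction. Genes not tested in a table have no point, and on the left Serpini1 and Tfpi passed the filter only through their 24 h libraries. On the right Serpini1 and Thbd also passed it only through 24 h libraries.

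The genes whose pattern was most like that of each member were sought by Pearson correlation of log2(FPKM + 1) over the 12 shRNA libraries among 8467 or 8468 tested genes with a mean of at least 5 FPKM. The libraries share times and cells, so these values are descriptions. Closest to Plau were Tnc, which encodes the matrix protein tenascin C (r = 0.987, and 0.861 over the 6 parental libraries), and Jmjd4 (0.986 and 0.934). Closest to Plat were Sparc, for the matrix protein osteonectin (0.9748 and 0.986), and Zdhhc12 (0.969 and 0.778). For Plaur they were Foxp1 (0.889 and -0.64) and Nt5dc3 (0.850 and 0.714), and for Serpine2 Trpc4ap (0.897 and -0.65) and Trim39 (0.892 and -0.80). The likeness of Tnc, Jmjd4, Sparc and Zdhhc12 thus had the same sign in parental cells, while that of Foxp1, Trpc4ap and Trim39 had the opposite sign.

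Genes next to the members on the chromosome were read for comparison at 24 h in parental cells. Cadm4, 6.2 kb from Plaur and the site of its nearest lamin B1 peak, rose 3.17-fold (log2 difference 1.48) where Plaur did not pass the test, and Irgc1 on the other side was listed at 0 in all libraries. Ap3m2, 4.5 kb from Plat, rose 1.70-fold (0.63), and Ikbkb on its other side was at 1.15-fold (0.19). Vcl, 86.0 kb from Plau, rose 1.79-fold (0.83) and Camk2g 1.27-fold (0.31). Beside Serpine2, Mrpl44 was at 1.23-fold (0.28), while Fam124b stayed at or below 0.0192 FPKM. Beside Serpinb2, Serpinb7 stayed at or below 0.158 FPKM in parental libraries, and Serpinb8 rose 1.30-fold (0.34), with 8.00 to 15.7 FPKM over these libraries.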

How the data were processed

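The members, the gene lists and the tests were chosen with earlier results of these data known. The authors aligned the RNA reads and deposited FPKM values, with a column per library and replicates kept apart, so counts and depth are unknown; the processing notes in the labels name Bowtie, TopHat and Cufflinks and the build mm9 without versions. The tables have no header, and their columns were assigned by the order of groups that the name of each deposited table gives. Parental replicates are unnumbered. Peak lists of lamin B1 ChIP-seq and ATAC-seq come from MACS as run by the authors, and each deposited peak has coordinates and a score. The MACS version and control are not given in the sources used here.

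The log2(FPKM + 1) values of the 6 parental and of the 12 shRNA libraries were fitted apart in limma 3.58.1 (R 4.3.3, moderated with a mean-variance trend), keeping genes that reached 1 FPKM in 2 or more libraries. Benjamini-Hochberg adjusted p under 0.05 made a call, and the scripts were tested on simulated data. With 2 libraries per group no exact permutation test reaches that threshold, and p-values rest on the spread pooled over groups of a table. Named were the 5 members, Lmnb1, at most 3 called genes in each direction per list, the 2 genes most like each member, and its nearest genes. A peak was given to a gene when they shared 1 bp or more (Python 3.11.15, numpy 2.4.6, pandas 2.3.3; GENCODE M1 on NCBIM37). Symbols placed 21762 of 23295 genes, 768 by an older symbol. The alternatives were a pseudocount of 0.1, no filter, quantile normalization, only the groups compared, a 2-fold minimum, a replicate block, leaving out each library, and other peak rules. Hi-C data were not analysed here.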

Additional observations from a re-analysis of the deposited data

Results flagged for a closer look

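The response of Plaur to 24 h of TGF-β differed between KD and control cells by a log2 difference of -0.45 (limma, adjusted p = 0.039), and so it drew attention as an effect that differs between groups. The call was lost in several refits, among them those with no filter and with only the groups compared. The mean moved from 134.1 to 153.4 FPKM in control cells and from 161.2 to 134.9 FPKM in KD cells.

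Other differences were drawn out because every library of one kind of cell moved one way and every library of the other kind moved the opposite way, and they were not tested, since the tables were normalized separately. Serpine2 at 24 h was below the untreated libraries in parental cells and above them in shRNA cells. The log2 ratio of mean FPKM was lower in parental than in control cells by a difference of -0.76, and lower than in KD cells by a difference of -0.997. For Plaur at 24 h, parental cells lay below their untreated libraries and control cells above theirs, with a difference of -0.32.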

How the results depend on the processing

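Over 155 alternatives to the counts of members called or carrying a peak, 117 gave the same count or one within 1.5 times. Fewer calls came from 29 and more calls from 6, and 3 counts of ATAC peaks moved. Among 452 refits of single genes, 16 changed sign, 17 gained a call and 37 lost a call, all 37 for Plaur or Serpine2. The cause was not tested. FPKM without counts give no depth, which limits Serpinb2 most.

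None of the 16 values that changed sign had a call before or after. Quantile normalization gave 3 of them: Plat at 8 h (0.039) and Plaur from 8 to 24 h (0.058) in parental cells, and Serpine2 in untreated KD against control cells (-0.037). The other 13 came from leaving out a library, over which the log2 differences of the same genes ranged as follows. In parental cells Plat at 8 h ranged from -0.031 to 0.030 and Plaur from 8 to 24 h from -0.096 to 0.067. In control cells Plaur at 8 h ranged from -0.072 to 0.089. For KD against control, Serpine2 ranged from -0.016 to 0.026 in untreated cells and from -0.13 to 0.46 at 24 h, and Plau at 24 h from -0.43 to 0.11. The difference in response at 24 h ranged from -0.13 to 0.45 for Serpine2, from -0.0076 to 0.53 for Plau and from -0.22 to 0.019 for Plat. At 24 h both ends of each range came from leaving out either KD 24 h library.

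The 2-fold minimum was a log2 difference of at least 1 in size on the log2(FPKM + 1) scale, where Plau at 8 h in parental cells was 0.92. It left 0 members at 8 h, 1 at 24 h (Plau) and 0 from 8 to 24 h in parental cells. In control cells it left 0 at 8 h and 1 at 24 h, and in KD cells 0 and 1. For KD against control it left 0 in untreated cells and at 8 h, and for the difference in response at 24 h it left 0. With no filter the counts were 1 for KD cells at 8 h, 0 for KD against control in untreated cells and 0 for the difference in response at 24 h. With only the groups compared they were 0 for KD against control in untreated cells, 2 at 8 h (Plat and Plau) and 0 for the difference in response at 24 h. Quantile normalization gave 1 for KD against control at 24 h (Plaur, adjusted p = 0.027).

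Equal replicate numbers were not taken to pair the shRNA samples: deviations of equal numbers correlated at -0.14 to 0.37 over 15 pairs of groups, above 0.1 in 2 of them. The replicate block changed the count of calls for the difference in response at 24 h, from 1 to 0 (Plaur, adjusted p = 0.0599), and also ended the calls of Plaur in KD cells at 8 h and of Serpine2 in KD cells at 24 h. No paired analysis was possible for parental cells because their columns carry no replicate numbers.

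Leaving out each library gave 1 to 2 members at 8 h, 2 to 4 at 24 h and 2 to 3 from 8 to 24 h in parental cells, 2 at 8 h and 2 to 3 at 24 h in control cells, 1 at 8 h and 2 to 4 at 24 h in KD cells. For KD against control it gave 0 to 1 in untreated cells, 1 at 8 h and 0 to 3 at 24 h, and for the difference in response 0 at 8 h and 0 to 3 at 24 h. Over all tested genes the share called was 4.06% to 71.9% over the 12 comparisons, against 0.262% to 15.4% with a 2-fold minimum, 1.85% to 50.6% with no filter, 0.757% to 78.1% with only the groups compared, 2.48% to 71.5% with the block and 0.219% to 73.2% without 1 library. The lone sample of a group was then taken to vary like the other groups.

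Lamin B1 gave 0 of 5 members under every peak rule. From 2500 bp upstream to the 3′ end, ATAC peaks in untreated cells were at 2 members (Plaur and Plat), and 37.2% of placed genes had one. Within 2500 bp of the start site they were at 1 member (Plaur), and lists of equal length left 1 at 24 h (Plat). The shares over all genes were not computed for these last 2 rules.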
